A study of Mus musculus with 16 samples.

Results

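Transcripts of 6 skeletal muscle genes were far more abundant in 6 of 12 libraries made from the livers of aged mice, with 466 to 3638 fragments per library. These 6 libraries were compared with the other 6, which held 29 to 88 such fragments each. The members were chosen by measured values: the 12 libraries were ordered by a muscle score, the mean log2 CPM (fragments of a gene relative to all counted fragments of its library, with TMM scaling) of Acta1, Ckm, Tnnt3, Mylpf, Tnnc2 and Myh4, and the 6 highest form the higher set and the 6 lowest the lower set. The 12 libraries are part of a series of 16 mouse liver RNA libraries, with 4 mice to a group. There were 4 groups: aged controls (102 weeks, no antibiotics), PAM I and PAM II (both 102 weeks, with antibiotics) and young mice (12 weeks, no antibiotics). The labels give neither the drugs, doses and timing behind PAM I and PAM II nor the sex, strain, litter or cage of any mouse. The higher set held 1 of 4 controls, 2 of 4 PAM I and 3 of 4 PAM II libraries, and the lower set held the rest, so both sets mix the study's groups and neither is a treatment group. Xist, the X-inactivation RNA of female cells, did not exceed 0.118 CPM in any of the 12 libraries, and Ddx3y, a Y-linked gene, lay between 16.6 and 45.6 CPM.

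Skeletal muscle fibres contract when thick filaments of myosin pull on thin filaments of actin, a movement that calcium switches on through the troponin complex. Fast fibres use their own isoforms of myosin, troponin and the calcium pump, and liver cells make hardly any of these. Liver is built mainly of hepatocytes, whose drug-metabolising P450 enzymes differ between the sexes, and it holds resident macrophages, the Kupffer cells.

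The sequences below are the 250 bases before the transcription start of the genes that carry the contrast, from RefSeq on build GRCm38.p6, each on its gene's strand. Capitals in the muscle gene promoters mark CAGCTG, an E-box of the type bound by the muscle regulator MyoD, and a palindrome. RefSeq positions are chr11:67237562-67237811 (plus strand) for Myh4, chr7:19410844-19411093 (plus) for Ckm, chr8:123894776-123895025 (minus) for Acta1, chr2:164779735-164779984 (minus) for Tnnc2 and chr7:127211358-127211607 (plus) for Mylpf. Tnnt3 was not matched in the table.
Myh4: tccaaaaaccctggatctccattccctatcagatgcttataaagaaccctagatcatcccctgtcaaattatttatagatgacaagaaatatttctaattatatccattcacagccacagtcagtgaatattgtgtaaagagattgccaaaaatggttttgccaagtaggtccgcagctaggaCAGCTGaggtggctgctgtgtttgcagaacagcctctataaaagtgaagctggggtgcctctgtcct
Ckm: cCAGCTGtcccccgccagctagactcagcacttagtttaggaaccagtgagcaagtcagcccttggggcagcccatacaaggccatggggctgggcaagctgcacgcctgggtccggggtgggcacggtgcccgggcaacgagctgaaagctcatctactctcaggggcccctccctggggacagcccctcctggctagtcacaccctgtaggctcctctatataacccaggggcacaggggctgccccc
Acta1: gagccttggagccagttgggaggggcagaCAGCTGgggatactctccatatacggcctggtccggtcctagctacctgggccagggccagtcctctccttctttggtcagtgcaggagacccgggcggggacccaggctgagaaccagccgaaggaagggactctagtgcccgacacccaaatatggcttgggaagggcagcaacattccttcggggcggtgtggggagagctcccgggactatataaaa
Tnnc2: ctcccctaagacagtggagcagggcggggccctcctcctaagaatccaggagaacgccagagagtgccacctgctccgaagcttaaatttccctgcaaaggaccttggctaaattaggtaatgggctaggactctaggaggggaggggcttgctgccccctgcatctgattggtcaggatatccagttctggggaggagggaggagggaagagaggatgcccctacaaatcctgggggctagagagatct
Mylpf: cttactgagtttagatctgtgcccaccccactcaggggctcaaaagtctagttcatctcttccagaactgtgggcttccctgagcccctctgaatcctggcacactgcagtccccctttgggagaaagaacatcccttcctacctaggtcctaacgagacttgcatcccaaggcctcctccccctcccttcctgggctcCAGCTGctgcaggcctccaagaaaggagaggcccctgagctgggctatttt
The E-box began 67 bases before the start in Myh4, 249 in Ckm, 221 in Acta1 and 51 in Mylpf, and these letters did not occur in the Tnnc2 window. Of 32851 promoters of this length, 13% held CAGCTG. Among promoters of listed muscle genes whose values did not overlap between the sets, 46.2% (12 of 26, with the scored genes Acta1, Ckm and Myh4 among them) held it, and among those of the other listed muscle genes 36.8% did.

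The other promoters shown belong to genes outside muscle. Cyp2b9 (chr7:26173159-26173408, plus) and Cyp2b13 (chr7:26061245-26061494, plus) are neighbouring P450 genes that were both higher in the higher set. Capitals mark the 2 positions at which their promoters differ, and the 2 windows are 99.2% identical.
Cyp2b9: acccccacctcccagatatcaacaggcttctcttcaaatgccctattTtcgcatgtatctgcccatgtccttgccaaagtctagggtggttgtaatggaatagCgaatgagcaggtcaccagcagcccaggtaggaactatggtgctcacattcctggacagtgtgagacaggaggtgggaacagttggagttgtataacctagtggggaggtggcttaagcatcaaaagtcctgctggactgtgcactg
Cyp2b13: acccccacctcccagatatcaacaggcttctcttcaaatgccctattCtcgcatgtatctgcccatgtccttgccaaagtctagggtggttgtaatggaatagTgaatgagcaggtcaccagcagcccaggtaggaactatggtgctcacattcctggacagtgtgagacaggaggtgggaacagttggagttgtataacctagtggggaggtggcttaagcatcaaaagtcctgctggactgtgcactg
C1qc (chr4:136892915-136893164, minus) encodes a chain of complement C1q, made in liver by macrophages, and was lower in the higher set. Its capitals mark ACTTCCTC, the reverse complement of GAGGAAGT, a core of the kind bound by the myeloid factor PU.1.
C1qc: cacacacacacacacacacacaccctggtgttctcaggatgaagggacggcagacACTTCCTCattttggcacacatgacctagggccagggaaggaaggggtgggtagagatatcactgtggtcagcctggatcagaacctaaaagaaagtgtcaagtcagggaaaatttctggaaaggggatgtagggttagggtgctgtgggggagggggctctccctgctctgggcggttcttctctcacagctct
This motif, searched on both strands, began 195 bases before the C1qc start. It was in 2.44% of all promoters, in 7.26% (30 of 413) of the promoters of genes called lower in the higher set and in 2.42% of those of genes called higher. By list it was in 1 of 19 promoters of Kupffer cell genes, that of C1qc, and in 11.1% (4 of 36) of those of female-biased liver genes. A match is a run of letters, and no binding was measured.

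Myh4, the myosin heavy chain of the fastest fibres, gave 0 to 0.0231 CPM in the lower set, 1 fragment in total, and 3.28 to 29.9 CPM in the higher set, 3131 fragments in total. The fold between the summed libraries was 3420, with a 95% counting interval of 614 to 135000. Acta1, skeletal alpha-actin, was at 0 in 4 libraries of the lower set and reached 0.277 CPM in PAM I 3, against 2.73 to 19.6 CPM in the higher set, a 167-fold difference (interval 99.1 to 305). Muscle creatine kinase Ckm had 4 fragments over the lower set and 1502 over the higher set, 410-fold. Counting intervals and floors come from fragments summed over the libraries of a set, so they cover counting error only and leave out the spread between mice. The reads carry no molecular identifiers, so even counting error may be understated. These genes chose the libraries, so their values are a description without a test.

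**Figure D1:**
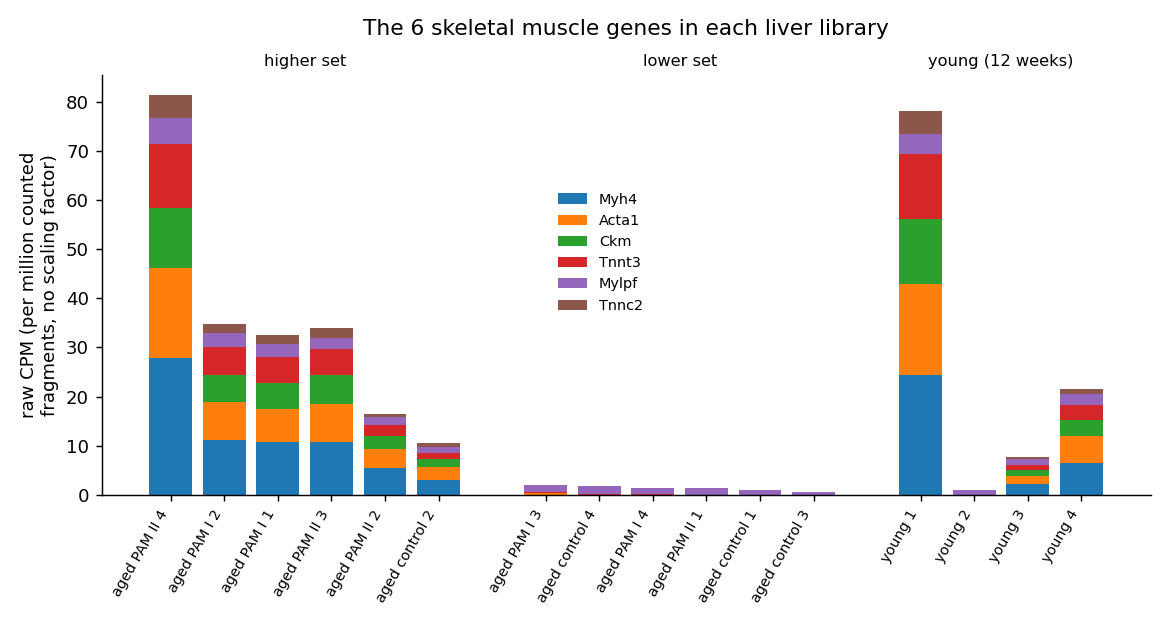
Raw CPM of each of the 6 muscle genes, without a scaling factor (bars stacked from 0), in the 12 aged libraries, ordered by muscle score, and in the 4 young libraries. The higher set ranges from 10.5 to 81.4 raw CPM in total and the lower set from 0.616 to 1.98, most of it Mylpf.

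The 2 sets were far apart. In the higher set the score was 0.74 in control 2, 1.29 in PAM II 2, 2.27 in PAM II 3, 2.27 in PAM I 1, 2.31 in PAM I 2 and 3.62 in PAM II 4. In the lower set it was -2.74 in PAM I 3, -3.09 in control 4, -3.10 in PAM I 4, -3.44 in PAM II 1, -3.51 in control 1 and -3.69 in control 3. The members just inside and just outside the cut were therefore control 2 and PAM I 3, with a gap of 3.48. The same 6 libraries came out highest under each of the 10 other ways of scoring. Apart from a score of only the other listed muscle genes, these ways reuse genes that chose the sets, and their gap was between 2.93 and 4.51. With only the other listed muscle genes the gap was 0.013. That score took genes that passed a low-count filter made with the 2 sets, so a gene could pass through the higher set alone. These ways of scoring are therefore no separate check.

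The muscle signal had nearly the same make-up in each library of the higher set. Myh4 was 29.8 to 34.2% of the fragments of the 6 genes, Acta1 21.1 to 24.9% and Ckm 15.2 to 17.2%, while their total varied from 10.5 to 81.4 raw CPM. Mylpf, the fast regulatory light chain, varied most, from 6.6 to 12.2%. It also had 0.609 to 1.46 CPM in the lower set, against 1.34 to 5.78 in the higher set, so its ranges overlapped, as the other 5 did not. Among myosin heavy chains, compared per kilobase, Myh4 made 92.2 to 93.9% of the total in all 6 libraries. Myh1 made 3.05 to 5.33%, Myh2 1.14 to 3.47% and Myh7, the slow fibre and heart isoform, 0.263 to 0.499%.

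Of 150 listed skeletal muscle genes, 31 were higher in all 6 libraries of the higher set than in any of the lower set, and none was lower in all 6. The 31 include 5 genes of the score, and of the 144 listed genes outside it 26 did not overlap. Among genes off the lists, 0.321% were higher without overlap and 0.303% lower, and nothing is read from the difference, since muscle transcripts chose the sets. On the low-count filter, 58 of the 144 passed, 9 of the 26 among them. Outside the score, the thick filament gave 9 of the 26, including Myl1, an essential light chain (1 fragment in the lower set, 541 in the higher). Of the thin filament genes outside the score, 1 of 10 did not overlap, Tnni2, the fast inhibitory troponin. For calcium handling the count was 5 of 29. The fast-fibre calcium pump Atp2a1 was 116-fold higher (interval 73.0 to 196), and the calcium buffer Pvalb had no fragment in the lower set and 536 in the higher, which is at least 195-fold higher when the lower set is put at its floor, 3 fragments over the set. Energy supply gave 3 of 19, the Z-disc and cytoskeleton 6 of 49 and other genes 2 of 20.

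Other genes on the muscle lists had about the same level in both sets. Fitm1, a lipid droplet protein, was the most abundant of them, with a median of 126 CPM in the higher set and 99.6 in the lower, and the ranges overlapped. Hspb6 (24.4 and 25.4 CPM), Adssl1 (22.9 and 25.8) and Csrp3 (21.6 and 19.3) likewise overlapped. Summed over all 150 genes, the muscle lists made 288 to 448 raw CPM in the higher set and 216 to 369 in the lower.

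Markers of other tissues near liver or muscle had few calls between the sets. Among all genes off the muscle lists, 0.896% were called higher and 2.72% lower. Few genes of these lists were measured, so a lack of calls says little about those tissues. Myh11 and Tagln of smooth muscle had medians of 3.11 and 9.90 CPM in the higher set and 3.02 and 11.2 in the lower. Of the 16 white adipocyte genes listed, 6 were measured and none was called. Adipoq did not exceed 0.0640 CPM in any of the 12 libraries. Of 11 heart genes, 4 were measured and 1 was called, Tnni3, a heart troponin, which was lower in the higher set (0.286 against 1.06 CPM in the median). Of 12 tendon and muscle connective tissue genes, 3 were measured and none was called, and no pancreas gene of 15 passed the filter. Of 12 mesothelium genes, 8 were measured, all negative with a median log2 difference of -0.73, and none was called. Their mean differed by 0.387 within controls, -1.558 within PAM I and -0.858 within PAM II. Msln and Upk3b of this list overlapped between the sets.

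Hepatocyte markers overlapped between the sets. The mean log2 CPM of 25 hepatocyte identity genes was 10.69 to 10.83 in the higher set and 10.58 to 10.88 in the lower. Counted fragments ran from 39856490 to 52090914 per aged library and the ranges of the sets overlapped. In a principal component analysis of 500 variable genes, on the leading axis (40.8% of variance), the higher set lay at 8.69 to 24.14 and the lower at -30.07 to -13.83, except control 3 of the lower set, at 10.69. Mitochondrial mRNA took 5.99 to 8.0% of fragments in the higher set and 3.98 to 8.77% in the lower.

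The comparison across other genes used edgeR's quasi-likelihood test with terms for control, PAM I and PAM II, and Benjamini-Hochberg adjustment over 16253 genes. Of 16189 genes off the muscle lists, 145 were called higher (0.896%) and 441 lower (2.72%) in the higher set, 3.62% in all, at an adjusted p under 0.05. The calls sit close to the threshold: 263 of the 586 had an adjusted p of 0.04 or more. All 586 had the same sign within controls, PAM I and PAM II taken alone. The fit that called them pools these differences, so the shared sign is no separate support. Controls also have only 1 library in the higher set and PAM II only 1 in the lower. Only 42 of them showed no overlap between the 6 and the 6 libraries. Over all 16189 genes, 52 were higher (0.321%) and 49 lower (0.303%) without overlap, and 4251 (26.3%) had an unadjusted p under 0.05, with a median log2 difference of -0.008.

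These counts depended strongly on the fit and on single libraries. Without the group terms, 4 genes were called higher (0.0247%) and 2 lower (0.0124%), all 6 of them also called with the terms. Leaving out PAM I 1 or PAM II 1 left no call in either direction, and leaving out control 1, control 2, PAM I 2, PAM I 3, PAM I 4, PAM II 2, PAM II 3 or PAM II 4 left 0 to 27 higher and 1 to 11 lower. Leaving out control 4 gave 291 higher and 591 lower, and leaving out control 3 gave 1528 and 1556. DESeq2 called 899 and 1283, and limma voom 1074 and 1248. The share called higher moved from 24.7% to 41.2% with DESeq2, 46.3% with voom, 49.5% without control 3, 66.7% without group terms (4 higher, 2 lower) and 71.1% without control 2 (27 higher, 11 lower), and to 11.1% without control 1 (1 higher, 8 lower). No called gene named below changed sign when any library was left out. Each lost its call without at least 6 of the 12 libraries, with adjusted p values up to 0.310 in edgeR's quasi-likelihood test.

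**Figure D2:**
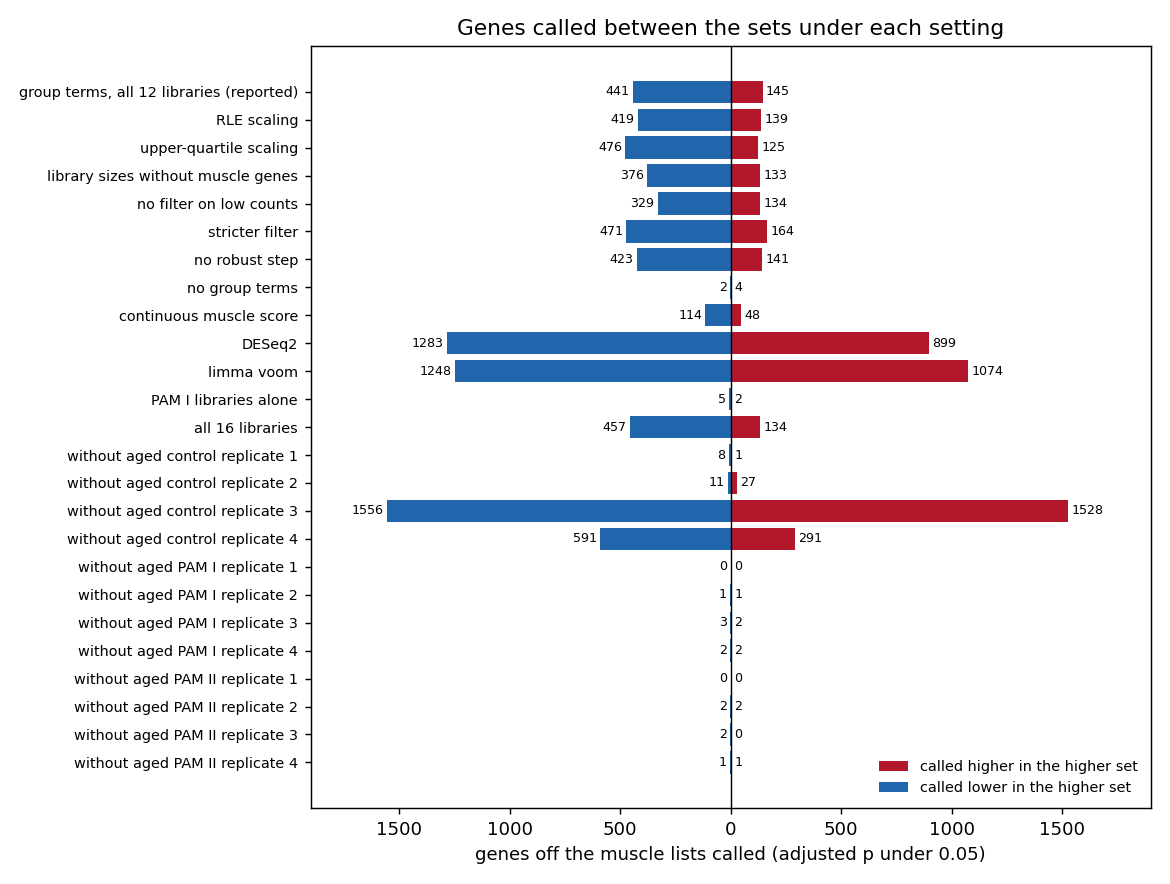
Number of genes off the muscle lists called higher (right) or lower (left) in the higher set under each setting, on a linear axis. The reported fit gives 145 and 441, leaving out control 3 gives 1528 and 1556, and most other left-out libraries leave close to none.

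Of the genes that female mouse livers normally express more than male ones, 4 of 29 measured were called higher in the higher set and none lower, against 0.896% and 2.72% of all genes off the muscle lists. A positive difference was seen in 28 of the 29, and the median log2 difference was 0.89, against -0.008 for all genes. The mean log2 CPM of the list was 2.92 to 3.83 in the higher set and 1.54 to 2.59 in the lower, without overlap. Cyp2b9, a P450 that male livers normally keep low, had 161, 226 and 358 CPM (lowest, median, highest) in the higher set and 31.7, 88.8 and 124 in the lower, a log2 difference of 1.72 (SE 0.33, edgeR adjusted p = 0.0383). All 6 libraries of the higher set lay above all 6 of the lower. The count of 4 was 9 without control 3, 12 with DESeq2, 1 without group terms, 2 without control 2, and 0 without control 1 or any PAM library. Cyp2b13, its neighbour, had 6.06, 22.4 and 29.5 CPM against 0.640, 2.49 and 5.95, which nearly touch.

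Cyp2a4, a steroid 15-alpha-hydroxylase, had 20.8, 51.6 and 57.2 CPM against 3.70, 12.0 and 15.6, a log2 difference of 1.86 (SE 0.40). It was also called without group terms (edgeR adjusted p = 0.0484). Other genes of these families had large differences and missed the threshold. Cyp2b10, the P450 that CAR activation induces, had 4.45 to 7.13 CPM against 0.405 to 3.75 (adjusted p = 0.0572), Cyp2a22 had a log2 difference of 1.57 (adjusted p = 0.0619) and Sult3a1 one of 3.36 (adjusted p = 0.0641). Cyp2b and Cyp2a genes are close copies of each other, so fragments may have been shared among them in counting.

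Male-biased genes had no common shift. Of 32 measured, none was called in either direction with edgeR's quasi-likelihood test, 13 were positive and the median was -0.18, which ran from -1.42 to 0.15 over the other fits. Hsd3b5, a steroid enzyme of male liver, overlapped fully, at 0.0650 to 1.25 CPM against 0.141 to 5.23. Bcl6, a male-biased repressor of female-type genes, had a log2 difference of 0.88 (adjusted p = 0.0899). The 19 genes of the growth hormone axis had a median of 0.07 and no call.

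Of 33 drug-metabolism genes under the receptors CAR and PXR, 4 were called higher (0.896% of all genes were) and none lower, 31 were positive and the median was 0.34, and the list mean did not overlap (7.13 to 7.44 against 6.48 to 7.02). The 4 were Cyp3a25, a P450 (median 525 against 347 CPM, log2 difference 0.70), Abcb1a, a drug efflux pump (6.30 against 3.59, 0.92), Sult1d1, a sulfotransferase (60.4 against 40.2, 0.67), and Abcc2, the canalicular pump for conjugates (581 against 400, 0.69). Abcc2 overlapped, since control 3 had 735 CPM, more than any library of the higher set. The count of 4 was 14 without control 3, 10 with DESeq2, 4 without control 4, 1 without control 2, and 0 without control 1, without any PAM library and without group terms. Gstt3, a glutathione transferase outside that list, had 60.9, 73.6 and 100 CPM against 34.5, 44.6 and 47.8 and was also called without group terms (edgeR adjusted p = 0.0130).

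In fatty acid synthesis, 2 of 21 genes measured were called higher (0.896% of all genes were) and none lower, 20 were positive and the median was 0.67. The count of 2 was 8 with DESeq2 or without control 3, 4 without control 4, and 0 with upper-quartile scaling, with library sizes without muscle genes, on the continuous score, with all 16 libraries, without group terms and without any other library. Fasn, fatty acid synthase, had 2122, 3005 and 3287 CPM against 932, 1654 and 2210 (log2 difference 0.90, SE 0.22, edgeR adjusted p = 0.0494), and Acly, which supplies its acetyl-CoA, had 551, 741 and 865 against 206, 433 and 525 (0.86, SE 0.21). Acacb, an acetyl-CoA carboxylase, did not overlap and had an adjusted p of 0.0537. Scd1 and Srebf1 had log2 differences of 0.59 and 0.23 and were not called. No cholesterol synthesis gene of 24 was called, with 21 positive and a median of 0.22. In bile acid synthesis and transport, 2 of 21 were called higher, Abcc2 and Akr1d1, a bile acid 5-beta-reductase (log2 difference 0.85), and the rate-limiting enzyme Cyp7a1 was not (0.97, adjusted p = 0.0825). Gldc, of glycine cleavage, was the 1 periportal gene of 18 called.

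All 13 mitochondrially encoded mRNAs were positive, with a median of 0.91, and 1 was called, against 0.896% of all genes called higher. The median was 0.48 without PAM II 1, 0.53 without group terms and 0.51 in the PAM I libraries alone. The gene called was mt-Nd6, a complex I subunit and the only mRNA of the light strand, with 114, 130 and 199 CPM against 61.5, 73.1 and 93.3 (log2 difference 0.91, SE 0.16). It was also called without group terms (edgeR adjusted p = 0.0484). The 41 nuclear-encoded respiratory chain genes had a median of 0.07 and no call.

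**Figure D3:**
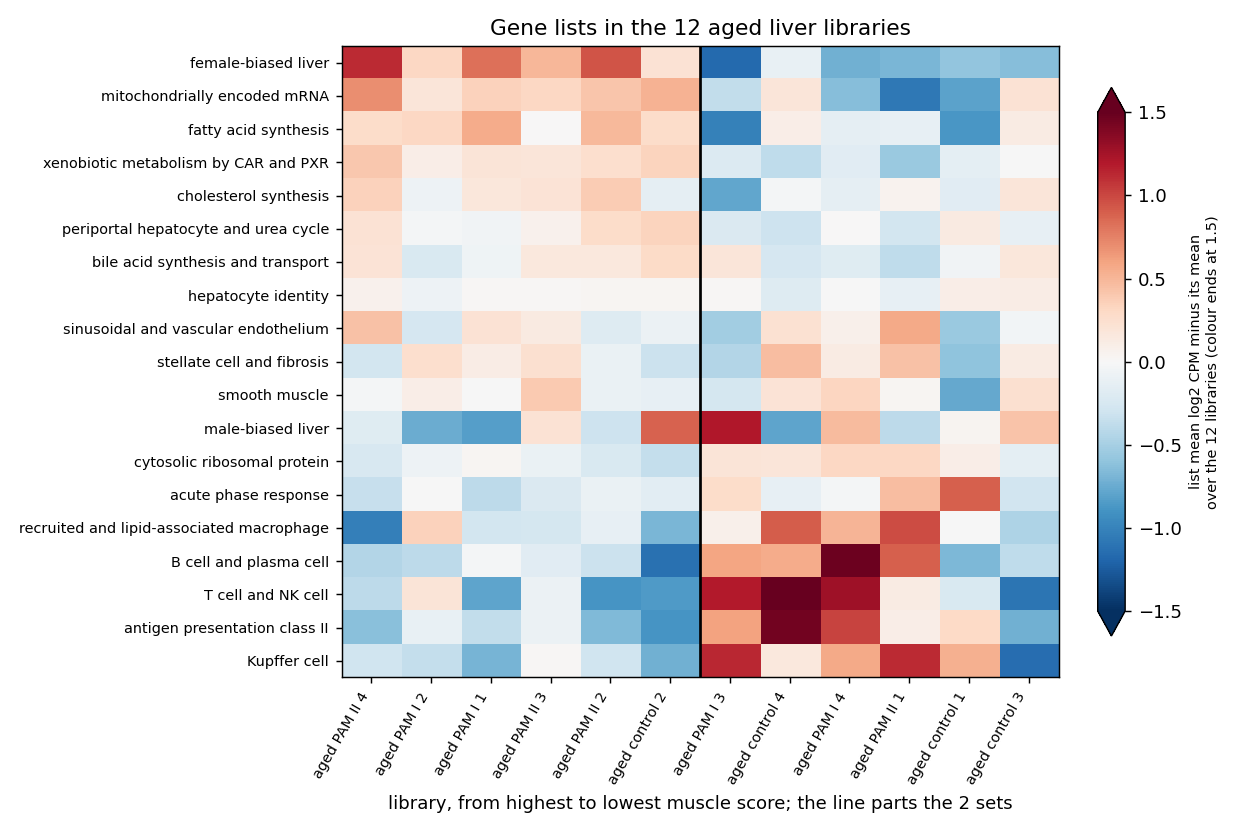
Mean log2 CPM of 19 gene lists in each aged library, minus the mean of that list over the 12 libraries (colour), with libraries ordered by muscle score. Female-biased genes are above their mean in all 6 libraries of the higher set, and control 3, at the right end, has low Kupffer cell genes like the higher set.

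Of 25 Kupffer cell genes, 14 were called lower in the higher set and none higher, against 2.72% and 0.896% of all genes. Of the 25, 24 were negative and the median log2 difference was -1.27. In whole tissue, fewer cells of a type and less RNA per cell cannot be told apart. Clec4f, the lectin that marks mouse Kupffer cells, had 47.6, 78.6 and 100 CPM in the higher set. In the lower set it had 33.7 in control 3, 126 in control 4, 184 in control 1, 291 in PAM II 1, 294 in PAM I 4 and 339 in PAM I 3. The other 5 libraries of the lower set thus lay above all 6 of the higher set, and control 3 lay below all of them. The log2 difference was -1.70 (SE 0.34, edgeR adjusted p = 0.0383), and -1.84 without control 3 (adjusted p = 0.00038). Vsig4, a complement receptor of these cells, showed the same order, with 15.4, 25.2 and 31.9 CPM against 13.3, 69.5 and 107.

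C1qb and C1qc had medians of 58.3 and 66.9 CPM against 153 and 162, and Cd5l, a macrophage-secreted scavenger protein, 75.3 against 120. Timd4, a receptor of long-resident Kupffer cells, had a log2 difference of -1.62 (adjusted p = 0.0662). Marco, a scavenger receptor, overlapped fully at 0.607 to 21.7 and 0.670 to 38.2 CPM. The count of 14 called was 20 without control 3, 13 without control 4, 19 with DESeq2, 5 on the continuous score, 2 without the filter, and 0 without any other library and without group terms. The list median stayed between -1.49 and -1.02 over all these fits.

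Other immune lists had fewer calls. Of 19 genes of recruited macrophages, 4 were called lower (2.72% of all genes were): Itgam (0.722, 0.864 and 1.73 CPM against 0.429, 4.08 and 10.2), Lyz2 (median 70.9 against 149), Ly6c2 (1.05 against 2.32) and Trem2 (1.97 against 8.39). The median log2 difference of this list was -0.80. It ran from -1.01 to -0.30 with each library left out and was 0.01 in the PAM I libraries alone. Without group terms 0 of these genes were called. Of 24 B cell and plasma cell genes all were negative and 5 were called lower, namely Jchain, Igkc, Iglc2, Ighg2b and Ighg3, which encode secreted antibody chains and the chain that joins them. Igkc had a median of 59.9 CPM against 150, and Jchain 4.69 against 11.8. The antibody segments resemble each other, so their counts are uncertain. Of 8 class II presentation genes and 24 T and NK cell genes all were negative, with medians of -1.01 and -1.24, and none was called. Of 7 neutrophil genes all were negative, with a median of -2.29, and none was called. That median rests on PAM II 1, whose mean log2 CPM of the list was 4.36 against -1.62 to 1.05 in the other libraries. It was -0.65 without PAM II 1 and -0.25 in the PAM I libraries alone. Elane of neutrophils reached 10.2 CPM in PAM II 1 and lay under 1 CPM in the median of both sets.

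**Figure D4:**
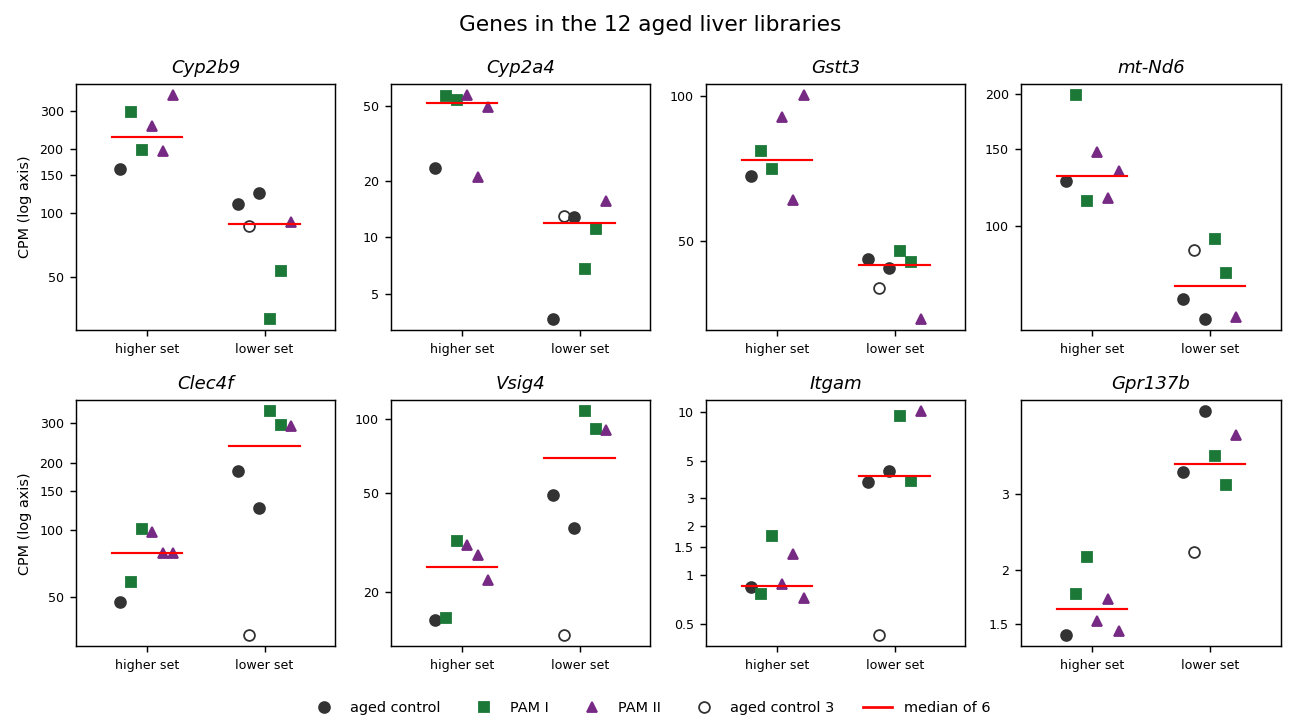
CPM of 8 genes (log axis) in the 6 libraries of the higher and the 6 of the lower set, marked by study group, with the median of each set in red. The top row and Gpr137b do not overlap between the sets, and in Clec4f, Vsig4 and Itgam control 3 (open circle) lies below all of the higher set.

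Of 44 cytosolic ribosomal protein genes, which encode the ribosome's protein parts, 23 were called lower, against 2.72% of all genes, all 44 were negative and the median was -0.40. Without overlap between the sets were 0 of the 44. Rpl10a, a ribosomal protein gene outside this list, had 98.8, 115 and 128 CPM against 129, 144 and 159, without overlap (log2 difference -0.39, SE 0.08). Rps4x and Rplp2 had -0.50 and -0.53. The count of 23 was 40 without control 3, 32 without control 4, 43 with DESeq2, 2 on the continuous score, 0 without any other library and 0 without group terms, and the median stayed between -0.46 and -0.28. Transcript length moved with the difference: in 5 equal bins of genes by length, the shortest (median 1027 bases) had a median log2 difference of -0.10 and the longest (9262 bases) 0.14. The part of length, of mitochondrial share, of Kupffer cell genes and of control 3 in these results was not tested.

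Lists for other cell types and states were near 0 or had few calls, where 2.72% of all genes were called lower. Endothelium (22 genes, median -0.03) and smooth muscle (7, -0.02) had no call. Of 25 stellate and fibrosis genes 1 was called, Tgfb1, a growth factor of fibrosis (13.9 against 27.3 CPM in the median). Of 31 cell cycle genes 2 were called lower, Mcm5 and Mcm6 of the replicative helicase, and of 23 immediate early genes 1, the transcription factor Junb (34.6 against 50.9 CPM). Of 6 peripheral nerve genes 1 was called, Mag, at no more than 1.13 CPM in any library. Of 33 acute phase genes 27 were negative and none was called, and Saa1 had medians of 52.9 and 131 CPM with overlap. Snhg11, a nuclear long RNA, was called higher (log2 difference 0.99).

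Several called genes without overlap belong to none of these lists. Higher were Lrtm1, a leucine-rich repeat membrane protein (13.8 against 4.13 CPM in the median, log2 difference 1.74), Ralgps1, an exchange factor for Ral (12.9 against 8.81, 0.76), Sytl4, a vesicle protein (3.38 against 2.41, 0.70), Rdh16, a retinol dehydrogenase (217 against 140, 0.61), Serpinb8, a protease inhibitor (9.95 against 7.29, 0.58), Maob, a monoamine oxidase (269 against 206, 0.48), and Miga2, of mitochondrial fusion (91.9 against 64.5, 0.48). Ralgps1 had the lowest adjusted p of the genes named off the muscle lists, 0.0246 in edgeR's quasi-likelihood test, and kept its call without 6 of the 12 libraries, more than any other of them.

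Lower without overlap were Gpr137b, a lysosomal membrane protein (1.62 against 3.52 CPM, log2 difference -1.12), Mthfd2, a mitochondrial folate enzyme (1.45 against 3.33, -1.05), Nucb2, the precursor of nesfatin (1.87 against 3.35, -0.89), Pmp22, a membrane protein best known from myelin (3.71 against 5.83, -0.82), and Zfp703, a transcriptional repressor (10.4 against 15.1, -0.58). Smaller differences were those of Prcp, a lysosomal carboxypeptidase (-0.56), Idua, the lysosomal iduronidase (-0.43), Sema4b (-0.36), Pygo2, a Wnt cofactor (-0.33), and E2f4, a cell cycle repressor (-0.29). Gpr137b was also called without group terms (edgeR adjusted p = 0.0484).

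Within the higher set, where the amount of muscle transcript varied from 10.5 to 81.4 raw CPM, no gene off the muscle lists of 14712 was called on the slope with the score by edgeR (0%), and 509 (3.46%) had an unadjusted p under 0.05. The smallest adjusted p was 0.154. Within the lower set no gene of 14741 was called either (0%), with 2071 at an unadjusted p under 0.05. The interaction of study group and set gave 1 call of 16189 (0.00618%), Sult5a1, a sulfotransferase, with 1 control library in the higher set and 1 PAM II library in the lower, and 646 genes at an unadjusted p under 0.05. The antibiotic contrasts, PAM I and PAM II each against the aged controls, gave 0 calls in edgeR with the set as a term and 0 without it. The number of genes at an unadjusted p under 0.05 was 3537 with and 1834 without the term for PAM I, and 1540 and 475 for PAM II.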

How the data were processed

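Total RNA of frozen liver portions was sequenced as paired reads of 100 bases. Per the submitters' processing notes, the authors used Trimmomatic 0.38, HISAT2 2.1.0 and featureCounts 1.5.0-p2 with build mm10. The deposited values are raw fragment counts per gene, with Ensembl release 99 exons and strand setting 1, per the file headers. Symbols of 55230 of 55471 identifiers came from GENCODE M21. Counted fragments per library were 36968993 to 52090914.

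Counts were scaled by TMM and filtered by filterByExpr in edgeR 4.0.16 (limma 3.58.1, R 4.3.3), and the score used a prior count of 2. The 12 aged libraries were fitted with the set and the study group as terms, with robust quasi-likelihood F tests and calls at a Benjamini-Hochberg adjusted p under 0.05. Counts simulated for this comparison held 16253 genes, with 100 changed genes for each size. Of these, 86 changed by a log2 of 1 and 96 changed by 2 were recovered, with 10 false calls. These values describe the simulated counts only. The share of false calls among the measured genes called here was not tested.

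Named genes were, per direction, up to 15 called genes off the muscle lists with the largest fold, no overlap and a mean log2 CPM of at least 1, leaving out predicted genes, pseudogenes and antibody or T cell receptor segments, together with genes of the lists and genes named beforehand. Some genes that this rule takes are not reported here. Timd4, Cyp2a22, Scd1, Srebf1, Elane, Iglc2 and Sult5a1 were named after their values were seen. The members and lists were chosen with earlier results of these data known. Alternatives included DESeq2 1.42.0, limma voom, other scalings and filters, and leaving out each library. Labels do not say how mice were housed or handled, so p-values measure only the spread between these libraries. The closest pair of libraries differed by a root mean square of 0.433 in log2 CPM, and no library was a copy.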

Additional observations from a re-analysis of the deposited data

Results flagged for a closer look

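In 9 of 256 groups of 6 libraries examined a single library stood apart by Dixon's ratio, where chance gives about 5% of groups. In the lower set these were Serpinb8 at 2.20 log2 CPM in PAM I 3, Itgam at -1.08 in control 3, Elane at 3.35 in PAM II 1, the cholesterol synthesis list at a mean log2 CPM of 6.34 in PAM I 3 and the erythroid list at 7.49 in PAM II 1. The mitochondrial rRNA share of control 4, 0.242% of fragments, stood apart from the rest of the lower set as well. In the higher set they were Saa1 at 6.97 log2 CPM and the hepatocyte identity list at 10.69, both in PAM I 2, and the nuclear-encoded respiratory chain list at 7.16 in PAM II 3.

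The difference between the sets itself differed between study groups for 1 gene, the sulfotransferase Sult5a1 (interaction adjusted p = 0.0237 in edgeR's quasi-likelihood test, 0.0274 with RLE scaling). The controls have 1 library in the higher set and PAM II has 1 in the lower, so those differences rest on single libraries and their spread is taken from the other arms. Within controls the higher set exceeded the lower by 1.54 on the log2 scale and within PAM II by 3.31, while within PAM I the difference was -2.36. In PAM I it had 1.65 and 1.95 CPM in the higher set and 12.0 and 7.37 in the lower. In PAM II it had 6.39, 7.17 and 7.15 CPM in the higher set and 0.653 in the lower.

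The young libraries, which are in neither set, also held muscle transcripts. The 6 muscle genes made 78.1 raw CPM in young 1, 21.5 in young 4 and 7.62 in young 3, all above the highest library of the aged lower set (1.98), and 0.936 in young 2.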

How the results depend on the processing

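The counts of genes called between the sets moved by over 1.5 times under many settings. Against 145 higher and 441 lower, the counts were 4 and 2 without group terms, 48 and 114 with the score as a continuous term, 899 and 1283 with DESeq2, 1074 and 1248 with limma voom, and 2 and 5 in the PAM I libraries alone. Leaving out each library gave 0 to 1528 higher and 0 to 1556 lower: without control 1, 1 and 8; control 2, 27 and 11; control 3, 1528 and 1556; control 4, 291 and 591; PAM I 1, 0 and 0; PAM I 2, 1 and 1; PAM I 3, 2 and 3; PAM I 4, 2 and 2; PAM II 1, 0 and 0; PAM II 2, 2 and 2; PAM II 3, 0 and 2; PAM II 4, 1 and 1. The cause was not tested. RLE or upper-quartile scaling, library sizes without muscle genes, the 2 other filters, the fit without the robust step and the fit of all 16 libraries gave 125 to 164 higher and 329 to 476 lower. Of 1887 values of named genes under alternatives, 1097 kept direction and side of the threshold, 751 kept direction but lost the call, 30 gained it and 9 changed sign, none of a called gene: Hsd3b5 (0.12, 0.21 and 0.67 without PAM I 1, 2 and 3, range with each library left out -2.36 to 0.67), Igf1 (-0.33 in PAM I alone, -0.11 without PAM II 1, range -0.11 to 0.24), Marco (0.21 without control 1, range -1.38 to 0.21), Myh11 (0.12 without PAM I 4, range -0.33 to 0.12) and Tagln (0.022 with limma voom, 0.079 in PAM I alone). No paired analysis was possible because the labels tie no mouse of a group to a mouse of another and the sets cut across replicate numbers. Where a control or PAM II arm was left with libraries of 1 set, that arm added nothing to the set difference. The difference then came from the other groups only, so such a fit drops more than 1 library from the contrast. Depth limits those muscle genes that had few or no fragments in the lower set.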

Other observations

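The young libraries, of another age, were scaled with the aged ones in an alternative chosen after seeing the data. Some of their levels lay near those of the aged higher set and others did not. Cyp2b9 was at 0 CPM in young 1, 0.0999 in young 2, 0.0243 in young 3 and 0.0805 in young 4, and Cyp2a4 at 0.336, 0.350, 0.340 and 0.188. Clec4f had 75.3, 59.9, 68.0 and 70 CPM and Vsig4 10.6, 12.7, 14.1 and 14.9, so young 2, the library without Myh4, Acta1 or Ckm fragments, lay among the other 3 or below them in Clec4f. mt-Nd6 had 125.5, 87.7, 199 and 237 CPM, lowest in young 2. The mean log2 CPM of the Kupffer cell list was 3.92, 4.16, 4.43 and 4.28 in young 1 to young 4, and that of the female-biased list -0.43, 0.18, 0.18 and -0.15. For the list of mitochondrially encoded mRNAs it was 9.44, 8.43, 8.3 and 8.53, lowest in young 3. Other lists with a positive median between the aged sets were highest in young 2. These were fatty acid synthesis (7.88, 8.78, 7.86 and 7.51), cholesterol synthesis (6.41, 7.12, 6.59 and 6.67) and the CAR and PXR list (6.65, 6.96, 6.76 and 6.78). With 1 young library lacking muscle transcripts there is no test.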
